A study of Mus musculus with 3 samples.

Results

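The cytosolic ribosomal protein genes encode the proteins of the small and large subunits of the ribosome that works in the cytoplasm. Members were chosen by symbol: Rps or Rpl, a number, and after it at most 1 letter (a, x, l or y) and 1 digit. Rpsa, Rplp0, Rplp1 and Rplp2 were added, and mitochondrial ribosomal proteins and genes named as pseudogenes were left out. Of 84 genes with such symbols, 82 reached 1 FPKM, an abundance corrected for transcript length and sequencing depth, in any library, out of 23183 genes with values. They comprised 33 genes of the small subunit and 49 of the large subunit. Symbols with a longer ending fell outside this rule, among them Rps27rt, described below, and the paralog Rpl36al. Rpl36al had 1214 FPKM in OVA+PM10, 1898 FPKM in PM10 and 376 FPKM in control. The genes below the limit were Rpl10l, listed at 0 in every library, and Rpl39l, with 0.2 FPKM in OVA+PM10, 0.114 FPKM in PM10 and 0.22 FPKM in control. The members nearest to the limit from above were Rpl3l, Rps27 and Rpl7l1, whose highest values were 19.1, 23.0 and 36.4 FPKM.

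RNA from whole lung homogenates of female BALB/c mice, an inbred strain with no modified allele named in the labels, was sequenced in 3 libraries, with 1 library in each group. OVA+PM10 mice received ovalbumin, an egg-white protein used to make mice allergic, with aluminium hydroxide (20 µg into the abdomen, last on day 14) and into the nose (30 µL of 1 mg/mL on days 21, 22 and 23), and also received PM10, a certified fine-dust reference material. PM10 mice received the particles without ovalbumin, 4 times over 2 weeks by the nose in 20 µL of saline, and control mice are labelled control with no vehicle named. The age is 10 weeks in one label and 5 to 6 weeks in another, the first ovalbumin dose is placed on day 0 or day 1 by different labels, and particle doses of 100 or 200 µg are listed without saying which was sequenced. The labels give 5 mice per group and do not say whether RNA of several mice was pooled. No library from mice given ovalbumin without particles was analysed here. With 1 library per group no difference below has a replicate check, and no test between groups was made.

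Each ribosome carries a single copy of most of its proteins, with the acidic stalk proteins as the known exception, and the genes are expressed at high levels. Their mRNAs are short and begin with a run of pyrimidines, the 5′ terminal oligopyrimidine (TOP) motif, through which the kinase Mtor and the RNA-binding protein Larp1 control their translation. In lung, as in other tissues, they are transcribed in every cell type, and cells with much protein synthesis, such as proliferating lymphocytes, carry more ribosomes.

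Step sizes among low values corresponded to about 15700000 reads in OVA+PM10, 13100000 in PM10 and 20700000 in control. A ribosomal protein gene rested on a median of about 32129, 51310 and 17485 reads in these libraries, so that counting error was small for most of them, and between 76 and 77 of the 82 had at least 1000 reads. The summed FPKM over all genes was unequal, at 855739, 1293180 and 546315 in the OVA+PM10, PM10 and control libraries. All 6 lung epithelial markers were present in every library, with a summed level of 93105, 111938 and 69333 FPKM. The control library stood apart in other tissues' genes: 8 skeletal muscle markers summed to 30.8 FPKM in OVA+PM10, 21.4 FPKM in PM10 and 3895 FPKM in control, and 6 squamous epithelial markers to 1.87, 0.661 and 4142 FPKM. Of the muscle markers, 3 in OVA+PM10 and 2 in PM10 were listed at 0, with Acta1 among those of the PM10 library. The part of this tissue difference in the ribosomal protein values was not tested. In bulk tissue, fewer cells of a type and less RNA per cell cannot be told apart.

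Ribosomal protein genes were among the most abundant in each library. Their median level was 2436 FPKM in OVA+PM10, 4449 FPKM in PM10 and 1076 FPKM in control, while the median of all genes with at least 1 FPKM was 8.95, 9.44 and 9.20 FPKM. Of the 100 genes with the highest FPKM, 61 in OVA+PM10, 62 in PM10 and 54 in control were ribosomal protein genes. Together the 82 genes summed to 224015 FPKM, or 26.2% of the library, in OVA+PM10, to 466116 FPKM, or 36.0%, in PM10, and to 87334 FPKM, or 16.0%, in control. Weighted by transcript length, which approximates the share of sequenced bases, the shares were 15.9%, 25.0% and 7.64%. The order of the libraries was the same by either measure, with PM10 highest and control lowest. The 33 small-subunit genes summed to 0.814 times the 49 large-subunit genes in OVA+PM10, 0.860 times in PM10 and 0.835 times in control, so that the balance between subunits moved little while the total moved several-fold.

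**Figure D1:**
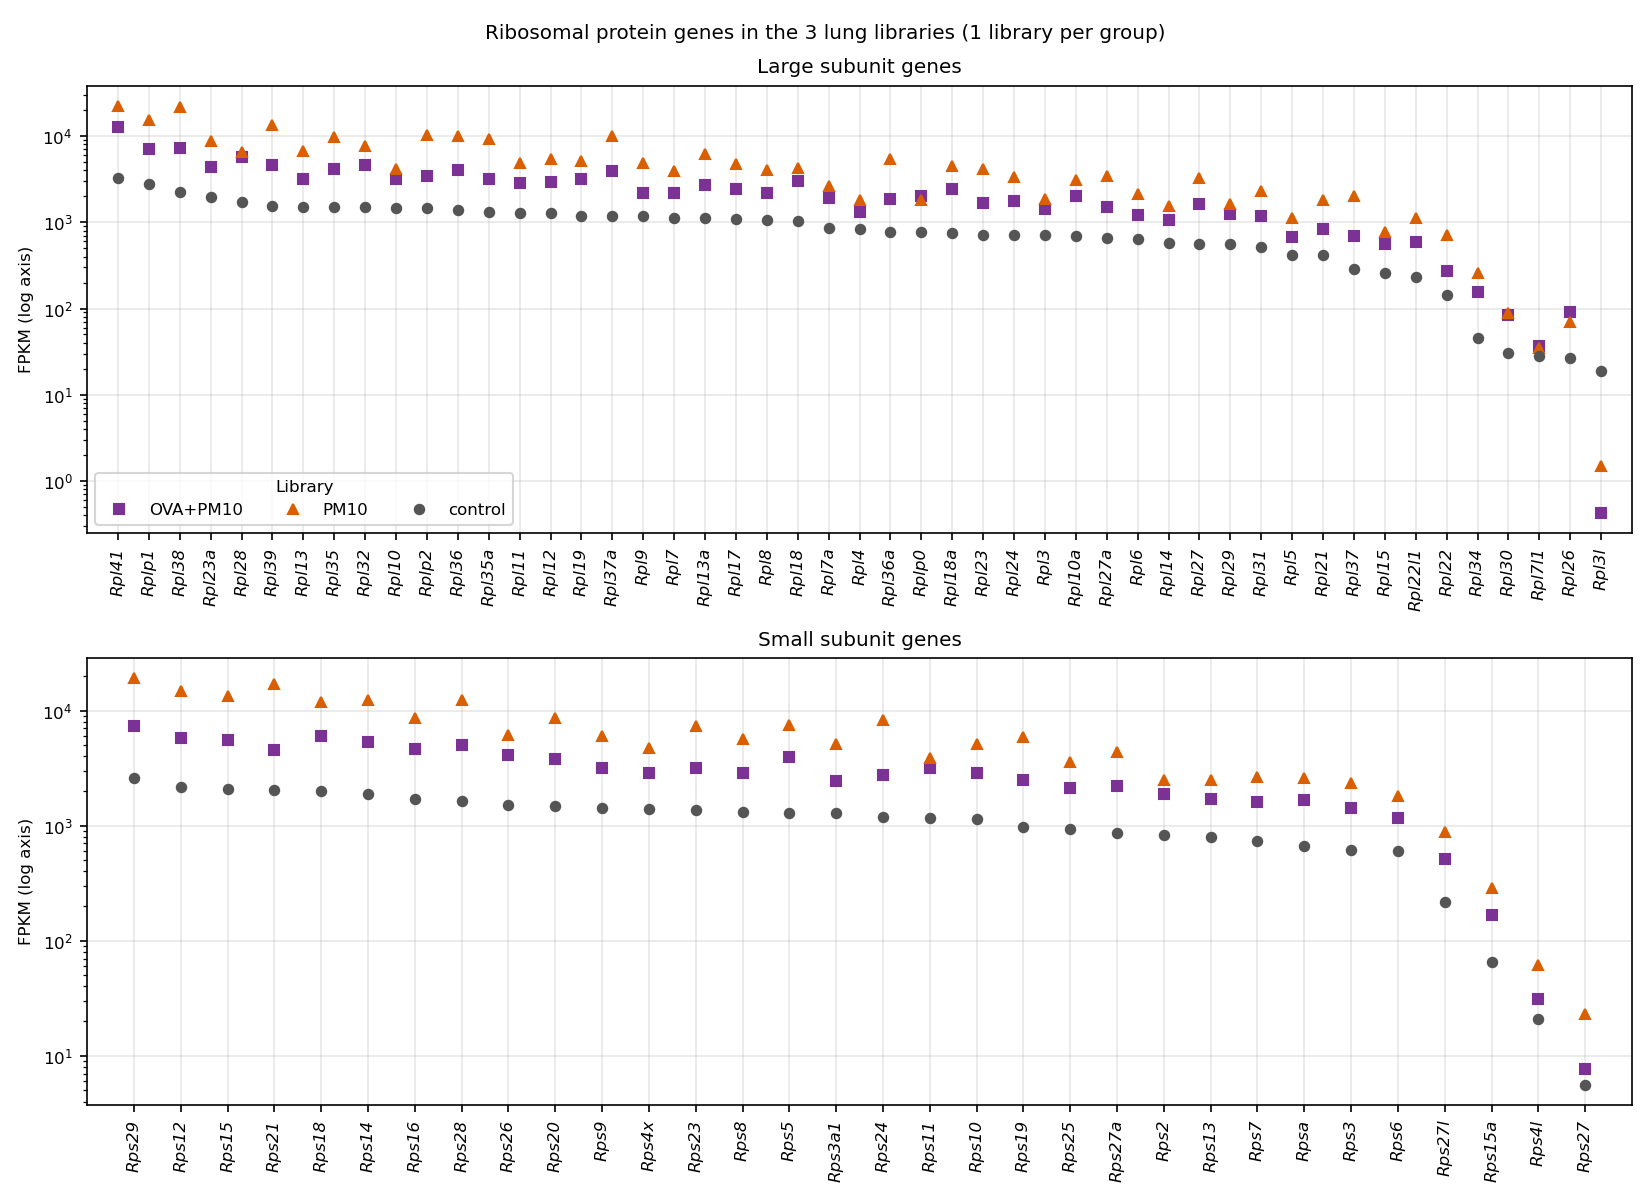
Level of each of 81 ribosomal protein genes in FPKM (log axis) in the OVA+PM10, PM10 and control libraries, with 1 symbol per gene and library. Genes run from high to low in control within each subunit. The symbols are mostly ordered with PM10 highest (median over the 82 members 4449 FPKM), OVA+PM10 between (2436 FPKM) and control lowest (1076 FPKM), and Rpl3l is the gene that is highest in control.

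Within a library the members were not equal. Rpl41, which encodes the smallest ribosomal protein, was the highest member in each library, with 12681 FPKM in OVA+PM10, 22161 FPKM in PM10 and 3268 FPKM in control. Rps29, a zinc-binding protein of the small subunit, had 7405, 18999 and 2588 FPKM in the same libraries. Rplp1, a stalk protein, had 7152, 15441 and 2792 FPKM. Rpl38 of the large subunit, known from mouse embryos for a role in the translation of Hox mRNAs, had 7189 FPKM in OVA+PM10, 21816 FPKM in PM10 and 2234 FPKM in control. These 4 genes were among the 5 highest members in each of the libraries. Of the small subunit, Rps18 completed the 5 in OVA+PM10 with 6052 FPKM, Rps21 those in PM10 with 16859 FPKM and Rps12 those in control with 2159 FPKM.

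The remaining inequality was examined in 72 members, after 5 paralogs and 5 other members of low level had been left out, a choice made after the values were seen. In these, the lowest gene was Rpl22 in each library, with 274 FPKM in OVA+PM10, 704 FPKM in PM10 and 144 FPKM in control. Rpl22 encodes a large-subunit protein that mice need for the development of most T cells. The ratio of the highest to the lowest of the 72 was 46.3 in OVA+PM10, 31.5 in PM10 and 22.7 in control. Their coefficient of variation was 64.8%, 75.6% and 50.1%, and 54, 44 and 60 of the 72 lay within 2-fold of their library's median. The members were therefore least equal, by coefficient of variation, in the PM10 library and most equal in control.

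The first comparison sets PM10 exposure against control. As log2 ratios of FPKM + 1, 80 of the 82 members were at least 2-fold higher in PM10 and 1 was at least 2-fold lower, with a median of 2.14 (4.41-fold) and an interquartile range from 1.82 to 2.55. Over the 13693 genes with at least 1 FPKM in either library, 13.6% passed 2-fold upward and 13.9% downward, with a median of 0.02. Scaling both libraries to the same sum lowers each ratio of abundant genes by 1.24, which left 35 members at least 2-fold higher, with a member median of 0.90 and a median over all genes of -1.05. Under that scaling 78 of the 82 members were above 0, and Rpl4, Rpl7l1 and Rplp0 changed to values below 0. The members themselves held 36.0% of the summed FPKM in PM10 and 16.0% in control. Scaling to the same sum therefore takes away part of their own difference. Scaled by the median ratio instead, 80 members were at least 2-fold higher, with a median of 2.14. The 33 small-subunit genes and the 49 large-subunit genes had the same median of 2.14.

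The largest ratios of PM10 to control belonged to short proteins. Rpl38 had the highest, at 3.29 (9.76-fold). Rpl39, a small protein that lines the exit tunnel of the large subunit, had 4640 FPKM in OVA+PM10, 13394 FPKM in PM10 and 1526 FPKM in control, and a ratio of PM10 to control of 3.13. Rpl37a, a zinc-binding protein of the large subunit, had 3897, 10073 and 1189 FPKM and a ratio of 3.08. Both stood in the same order as Rpl38, with the PM10 value well above both others. Rps21 of the small subunit had 4532 FPKM in OVA+PM10, 16859 FPKM in PM10 and 2039 FPKM in control, and a ratio of 3.05. Rps28, near the mRNA exit of the small subunit, had 5044, 12380 and 1642 FPKM and a ratio of 2.91. All 5 of these genes have coding sequences of at most 276 bases.

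At the other end, the ratios of PM10 to control were smallest for Rpl3l and Rpl7l1, described with the paralogs below, and for Rpl4, Rplp0 and Rpl26. Rpl4, whose long loop reaches into the exit tunnel, had 1323 FPKM in OVA+PM10, 1828 FPKM in PM10 and 831 FPKM in control, a ratio of PM10 to control of 1.14. Rplp0, the base of the stalk and a frequent reference gene in quantitative PCR, had 2018, 1812 and 774 FPKM and a ratio of 1.23. Rpl26, which contacts the growing chain's exit and in human cells binds the p53 mRNA, had 91.9 FPKM in OVA+PM10, 70.2 FPKM in PM10 and 26.7 FPKM in control, a ratio of 1.36. Rpl4 and Rplp0 are among the abundant members, whereas Rpl26 has a near-identical copy at a far higher level, described with the near-identical genes.

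The second comparison sets OVA+PM10 against control. Of the 82 members, 69 were at least 2-fold higher in OVA+PM10, 1 was at least 2-fold lower and 12 lay within 2-fold, with a median log2 ratio of 1.23 (2.35-fold) and an interquartile range from 1.11 to 1.44. Over the 13877 genes with 1 FPKM or more in either library, 9.95% passed 2-fold upward and 8.68% downward, with a median of -0.0017. Scaled to the same sum, a shift of -0.65, 7 members were at least 2-fold higher, with a member median of 0.59 and a median over all genes of -0.58, and Rpl7l1, Rps27 and Rps4l changed to values below 0. Small-subunit genes had a median of 1.30 and large-subunit genes one of 1.22. The 12 members within 2-fold were Rpl4, Rpl5, Rpl6, Rpl7, Rpl9, Rpl14, Rpl22, Rps3a1, Rps6, Rps27, Rps4l and Rpl7l1. The interquartile range was narrower than for PM10 against control, which uses the same control library.

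Rpl41 had the highest ratio of OVA+PM10 to control, at 1.96 (3.88-fold). Rpl34 followed at 1.76 with 156 FPKM in OVA+PM10, 261 FPKM in PM10 and 45.5 FPKM in control, then Rpl26 at 1.75, both of which have near-identical copies. Rpl28, a large-subunit protein found in animals but not in budding yeast, had 5735 FPKM in OVA+PM10, 6537 FPKM in PM10 and 1742 FPKM in control, a ratio of OVA+PM10 to control of 1.72. Its OVA+PM10 and PM10 levels were close to each other and both far above control. Rpl37a was next, at 1.71. The lowest ratios among abundant members were those of Rpl4, at 0.67, and of Rpl5, at 0.69. Rpl5, which with Rpl11 and the 5S RNA forms the particle that binds the p53 regulator Mdm2, had 680 FPKM in OVA+PM10, 1132 FPKM in PM10 and 422 FPKM in control. Rps6, the small-subunit substrate of the S6 kinases downstream of Mtor, had 1168 FPKM in OVA+PM10, 1817 FPKM in PM10 and 601 FPKM in control, at a ratio of OVA+PM10 to control of 0.96.

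The third comparison sets OVA+PM10 against PM10. None of the 82 members was at least 2-fold higher in OVA+PM10, 32 were at least 2-fold lower and 50 lay within 2-fold, with a median of -0.92 (0.528-fold) and an interquartile range from -1.21 to -0.70. Over the 13556 genes with 1 FPKM or more in either library, 11.8% passed 2-fold upward and 9.0% downward, with a median of -0.03. Scaled to the same sum, a shift of 0.60, 3 members were at least 2-fold lower, the member median was -0.34 and that of all genes 0.47, and 13 members, among them Rpl3, Rpl4, Rpl28 and Rps2, changed to values above 0. The lowest ratio was that of Rps21, at -1.90. Rplp2 followed with -1.60, Rpl38 with -1.60, Rps24 with -1.59 and Rpl36a with -1.54. Rps24, one of the genes mutated in human Diamond-Blackfan anemia, had 2751 FPKM in OVA+PM10, 8303 FPKM in PM10 and 1184 FPKM in control. Rpl36a of the large subunit had 1850, 5397 and 781 FPKM. The members above 0 were Rpl26 at 0.38, Rplp0 at 0.16 and Rpl7l1 at 0.05, and the next in order were Rpl30 at -0.08 and Rpl28 at -0.19.

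**Figure D2:**
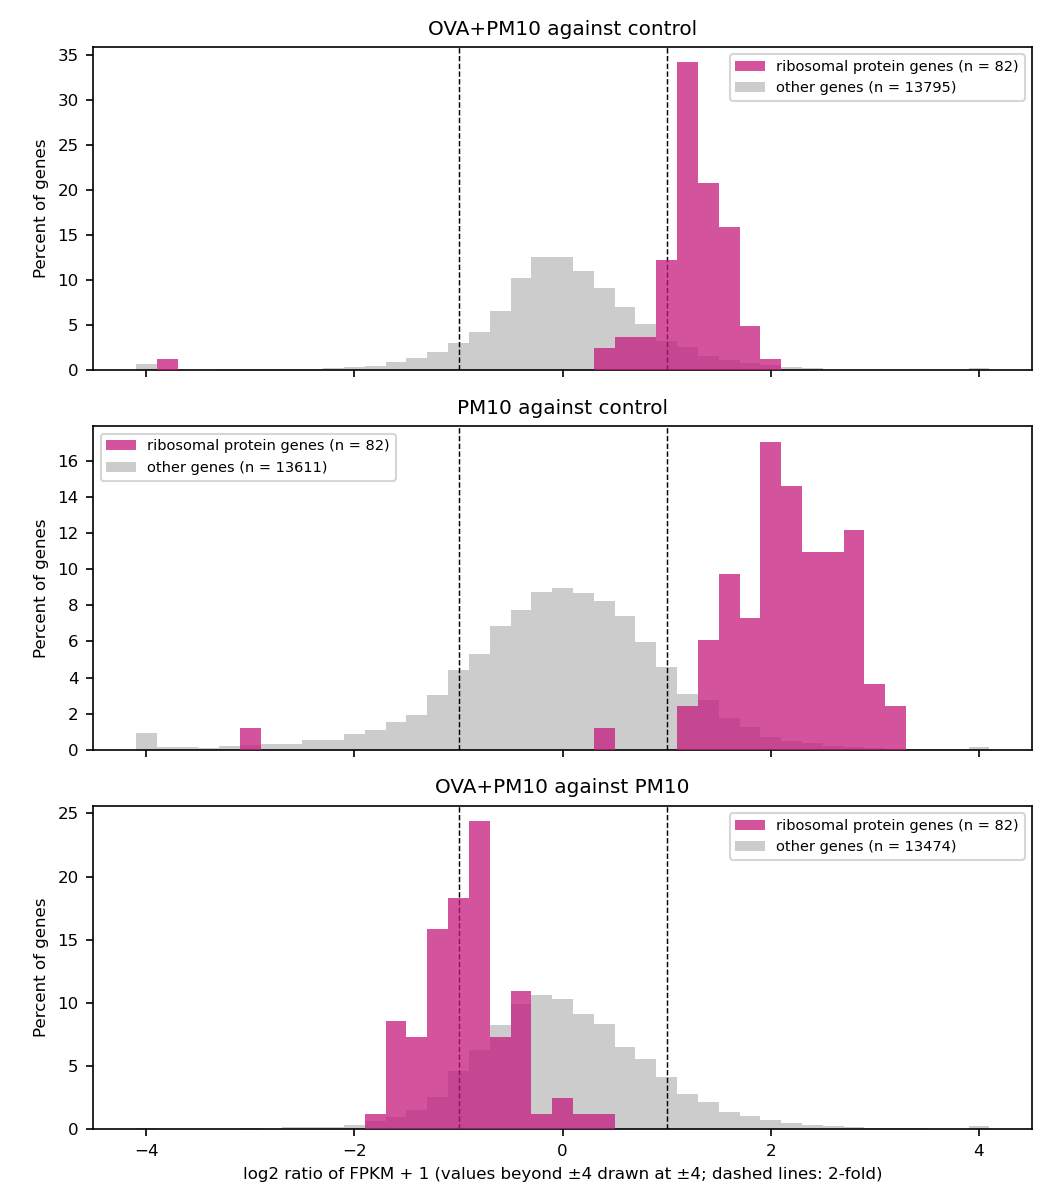
Histograms of the log2 ratio of FPKM + 1 for OVA+PM10 against control, PM10 against control and OVA+PM10 against PM10, as percent of the 82 ribosomal protein genes and, in grey, of the other genes, with dashed lines at 2-fold and values beyond 4 drawn at 4. Both comparisons with control lie mostly above 2-fold (medians 1.23 and 2.14), while OVA+PM10 against PM10 lies below 0 (median -0.92) for all but 3 members.

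The stalk of the large subunit recruits translation factors, and in it Rplp0 anchors dimers of Rplp1 and Rplp2. Rplp0 had nearly the same level in both exposed libraries, with 2018 FPKM in OVA+PM10, 1812 FPKM in PM10 and 774 FPKM in control. Rplp2 did not, with 3416 FPKM in OVA+PM10, 10385 FPKM in PM10 and 1468 FPKM in control. In FPKM, which is per transcript length, Rplp1 stood at 3.54 times Rplp0 in OVA+PM10, 8.52 times in PM10 and 3.61 times in control. Rplp2 stood at 1.69 times Rplp0 in OVA+PM10, 5.73 times in PM10 and 1.90 times in control. Within the stalk, OVA+PM10 was thus close to control in proportions while PM10 was not. Because these are ratios within a library, no scaling of a whole library changes them. Rplp0 has a coding sequence of 951 bases, against 342 for Rplp1 and 345 for Rplp2.

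Of the paralogs, Rpl3l was the single member at least 2-fold lower than control in each exposed library. It is the striated-muscle partner of Rpl3, a core protein of the peptidyl transferase centre, and had 0.428 FPKM in OVA+PM10, 1.47 FPKM in PM10 and 19.1 FPKM in control, a log2 ratio to control of -3.81 in OVA+PM10 and -3.02 in PM10. Rpl3 had 1433 FPKM in OVA+PM10, 1847 FPKM in PM10 and 710 FPKM in control. Rpl3l was thus high in the control library, the one that held the skeletal muscle markers, and its value in OVA+PM10 corresponds to about 9 reads. The part of the muscle markers in this value was not tested. Cardiac muscle markers summed to 278 FPKM in OVA+PM10, 120 FPKM in PM10 and 327 FPKM in control.

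Rpl7l1, which in mice is tied to ribosome assembly in the early embryo, was nearly level across libraries, with 36.4 FPKM in OVA+PM10, 35.1 FPKM in PM10 and 27.9 FPKM in control. Its partner Rpl7 had 2180, 3958 and 1119 FPKM. Rpl22l1, which can replace Rpl22 in the ribosome, had 586 FPKM in OVA+PM10, 1123 FPKM in PM10 and 232 FPKM in control and so exceeded Rpl22 itself in each library. The ratio of Rpl22 to Rpl22l1 was 0.468 in OVA+PM10, 0.627 in PM10 and 0.620 in control. Rps27l, a p53 target in human cells, had 508 FPKM in OVA+PM10, 877 FPKM in PM10 and 217 FPKM in control, with log2 ratios near the member medians (1.22 for OVA+PM10 against control and 2.01 for PM10 against control). Rps4l, annotated as a transcribed processed pseudogene, had 30.8, 62.0 and 20.7 FPKM, while the X-linked Rps4x had 2875 FPKM in OVA+PM10, 4708 FPKM in PM10 and 1404 FPKM in control. The pairs thus differed: Rpl22l1 and Rps27l followed the other members, Rpl7l1 stayed within 2-fold, and Rpl3l went the other way.

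Rps27a, made as a fusion to ubiquitin, had 2193 FPKM in OVA+PM10, 4368 FPKM in PM10 and 865 FPKM in control. Its ratios of 1.34 to control in OVA+PM10 and 2.34 in PM10 were close to the member medians. Among 8 genes whose human counterparts are mutated in Diamond-Blackfan anemia, 7 were at least 2-fold higher in OVA+PM10 than in control, with Rpl5 within 2-fold, and 8 at least 2-fold higher in PM10 than in control, and 3 were at least 2-fold lower in OVA+PM10 than in PM10. Over all 82 members the shares in the same order were 84.1%, 97.6% and 39.0%, and over all genes tested 9.95%, 13.6% and 9.0%. Rps19, the gene of this group most often mutated in patients, had 2502 FPKM in OVA+PM10, 5883 FPKM in PM10 and 967 FPKM in control. Rpl35a had 3212, 9268 and 1317 FPKM, the highest ratio of PM10 to control in the group together with Rps24 (2.81 each). Rpl11, the partner of Rpl5, had 2836 FPKM in OVA+PM10, 4935 FPKM in PM10 and 1280 FPKM in control, and Rpl5 stood at 0.240, 0.229 and 0.330 times Rpl11 in these libraries. Rps26 had 4076 FPKM in OVA+PM10, 6192 FPKM in PM10 and 1499 FPKM in control, and Rps10 had 2889, 5124 and 1145 FPKM. Rps7 had 1601 FPKM in OVA+PM10, 2638 FPKM in PM10 and 742 FPKM in control. Their log2 ratios of PM10 to control ran from 1.42 to 2.81, within the range of the other members.

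Of coding length, transcript length and exon number, coding length was most closely related to the ratio of PM10 to control among the members. In the 27 members with the shortest coding sequences (75 to 399 bases) the median log2 ratio of PM10 to control was 2.76, in the 27 of middle length (405 to 576 bases) it was 2.23, and in the 27 longest (582 to 1257 bases) it was 1.74. For OVA+PM10 against control the medians in the same order were 1.35, 1.33 and 1.10, and for OVA+PM10 against PM10 they were -1.30, -0.96 and -0.71, with 18, 11 and 3 members at least 2-fold lower (66.7%, 40.7% and 11.1%). Of other genes with at least 100 FPKM in any library, 37.7%, 25.2% and 20.4% were at least 2-fold lower in OVA+PM10 than in PM10 in these classes. A high PM10 value alone can bring a gene past that limit. Without the limit, the shares of other genes were 27.8%, 17.2% and 9.32%. The share of the longest members thus lay below that of the abundant genes and near that of all other genes. Their median of -0.71 lay below that of the abundant genes (-0.50). Across the 72 members described above, the correlation of log2 coding length with the ratio of PM10 to control was -0.78 (Pearson) and -0.82 (Spearman). With exon number the same correlation was -0.60 (Pearson) and with transcript length -0.49. For coding length it was -0.64 and -0.57 for OVA+PM10 against control and 0.58 and 0.68 for OVA+PM10 against PM10. Members share their libraries, and so these values describe the libraries and carry no p-value. Over all 81 members with a coding sequence, low values and paralogs included, the PM10 to control correlation was -0.62 (Pearson) and -0.72 (Spearman).

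Other genes showed a trend in the same direction. Over 12765 other genes the correlation of coding length with the ratio of PM10 to control was -0.34 (Pearson) and -0.46 (Spearman). Among other genes with at least 100 FPKM in any library, the median ratio of PM10 to control was 1.58 in the shortest class (254 genes), 1.24 in the middle class (210 genes) and 0.86 in the longest (427 genes). Of these, 77.6%, 62.9% and 43.6% were at least 2-fold higher in PM10. A high PM10 value alone can meet the 100 FPKM limit. Without that limit, the shares of other genes were 49.7%, 36.0% and 15.7%, with medians of 0.99, 0.71 and 0.30. In each class the ribosomal protein median lay above that of the other abundant genes, at 2.76, 2.23 and 1.74. With the trend over transcript length subtracted, estimated as a running median over genes, 40 members were at least 2-fold higher in PM10 than in control with a median of 0.99, and 8 in OVA+PM10 than in control with a median of 0.63. With the trend over coding length subtracted instead, 67 were at least 2-fold higher in PM10 than in control with a median of 1.47, and 29 in OVA+PM10 than in control with a median of 0.90. Library construction, RNA quality and size selection can act on short transcripts, and their part in these values was not tested.

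**Figure D3:**
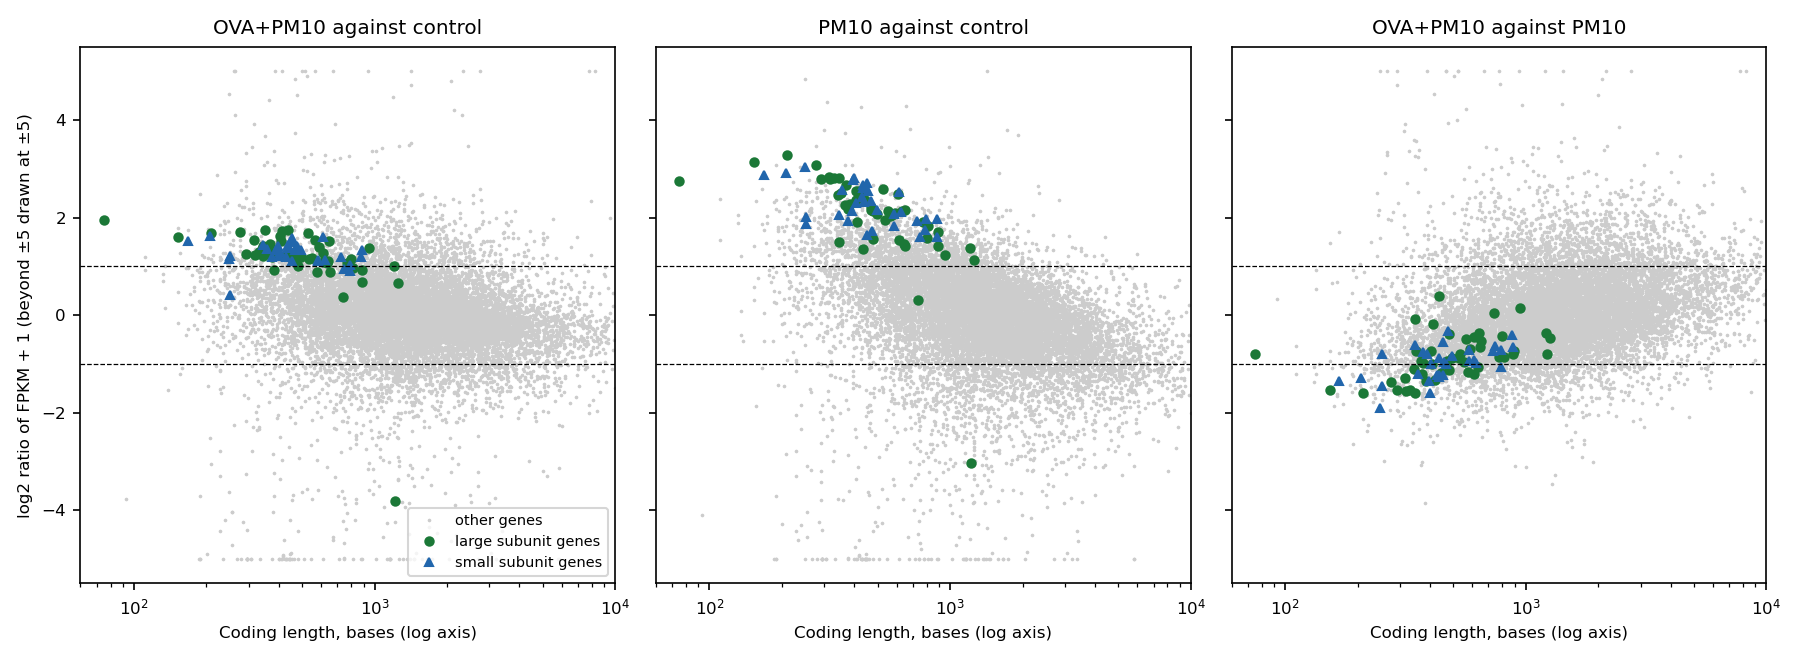
Log2 ratio of FPKM + 1 against coding length in bases (log axis) for OVA+PM10 against control, PM10 against control and OVA+PM10 against PM10, with circles for large-subunit genes, triangles for small-subunit genes, grey dots for other genes and dashed lines at 2-fold. In PM10 against control, members with short coding sequences sit highest (median 2.76 in the shortest class and 1.74 in the longest), and other genes slope the same way at lower ratios.

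Mammalian genomes hold many processed copies of ribosomal protein mRNAs, which can take reads from the parent gene. Of the 82 members, 76 had at least 1 other annotated gene that matched at least 95% of bases over at least 90% of the coding sequence, and 6 had none. There were 562 such genes in all, with a median of 5 per member and 56 for Rpl21. Values were listed for 16 of the 562, matching 15 members. In 4 cases the copy held nearly all of the signal, at over 1000 FPKM in control, while the member itself was low. These 4 pairs were chosen after their values were seen.

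Rps27, a zinc-binding protein of the small subunit on chromosome 3 (90212522 to 90213651, minus strand, 4 exons), had 7.75 FPKM in OVA+PM10, 23.0 FPKM in PM10 and 5.59 FPKM in control. Rps27rt, annotated as a protein-coding gene of 1 exon on chromosome 9 (114982366 to 114982739, minus strand), had 11486 FPKM in OVA+PM10, 25449 FPKM in PM10 and 4679 FPKM in control. Their coding sequences are identical over all 252 bases, so that a read inside a coding exon cannot be assigned to either, as the first 90 bases show (GENCODE transcripts, build GRCm38).
Rps27: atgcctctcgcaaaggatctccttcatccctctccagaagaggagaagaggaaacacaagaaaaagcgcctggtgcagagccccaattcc
Rps27rt: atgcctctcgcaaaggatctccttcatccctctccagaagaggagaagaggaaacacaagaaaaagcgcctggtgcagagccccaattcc

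The other 3 pairs each differ in 1 or 2 bases of the coding sequence. The stretches below show the first difference of each pair in capitals, with positions counted from 1 at the first base of the coding sequence and the member's base first. Rpl34 and Rpl34-ps1 differ at T132C and C318G, and bases 102 to 161 are shown. Rpl26 and Gm15772 differ at C177T and T288C, and bases 147 to 206 are shown. Rpl30 and Gm12191 differ at G96A, and bases 66 to 125 are shown.
Rpl34: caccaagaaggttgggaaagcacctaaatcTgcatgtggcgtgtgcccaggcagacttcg
Rpl34-ps1: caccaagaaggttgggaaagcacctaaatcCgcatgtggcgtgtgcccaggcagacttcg
Rpl26: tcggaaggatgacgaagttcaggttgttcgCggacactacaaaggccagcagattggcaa
Gm15772: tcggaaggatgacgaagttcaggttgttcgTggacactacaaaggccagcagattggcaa
Rpl30: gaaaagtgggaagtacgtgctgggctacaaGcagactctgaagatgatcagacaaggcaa
Gm12191: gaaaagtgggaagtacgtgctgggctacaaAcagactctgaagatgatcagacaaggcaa

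The copies of these 3 members lay in the range of the abundant members. Rpl34-ps1 (chromosome 6, 71124610 to 71124963, plus strand) had 3919 FPKM in OVA+PM10, 9568 FPKM in PM10 and 1425 FPKM in control. Gm15772 (chromosome 5, 3236431 to 3236868, plus strand) had 4535, 10677 and 1953 FPKM. Gm12191 (chromosome 11, 49678710 to 49679057, minus strand) had 2963 FPKM in OVA+PM10, 6313 FPKM in PM10 and 1337 FPKM in control, against 84.1, 88.6 and 30.7 FPKM for Rpl30. Each of these copies is a single exon annotated as a processed pseudogene. The member held 0.0674%, 0.0905% and 0.119% of the sum of its pair for Rps27 in OVA+PM10, PM10 and control, and at most 3.83% for the others. Summed over the pair, the log2 ratios of PM10 to control became 2.44 for Rps27, 2.74 for Rpl34, 2.44 for Rpl26 and 2.23 for Rpl30, and those of OVA+PM10 to control 1.29, 1.47, 1.22 and 1.16. Those of OVA+PM10 to PM10 became -1.15, -1.27, -1.22 and -1.07. Rpl26, which by itself was the highest of all members in OVA+PM10 against PM10 (0.38), then lay among the lower ones. The sources used here do not say how reads with several matching places were handled.

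**Figure D4:**
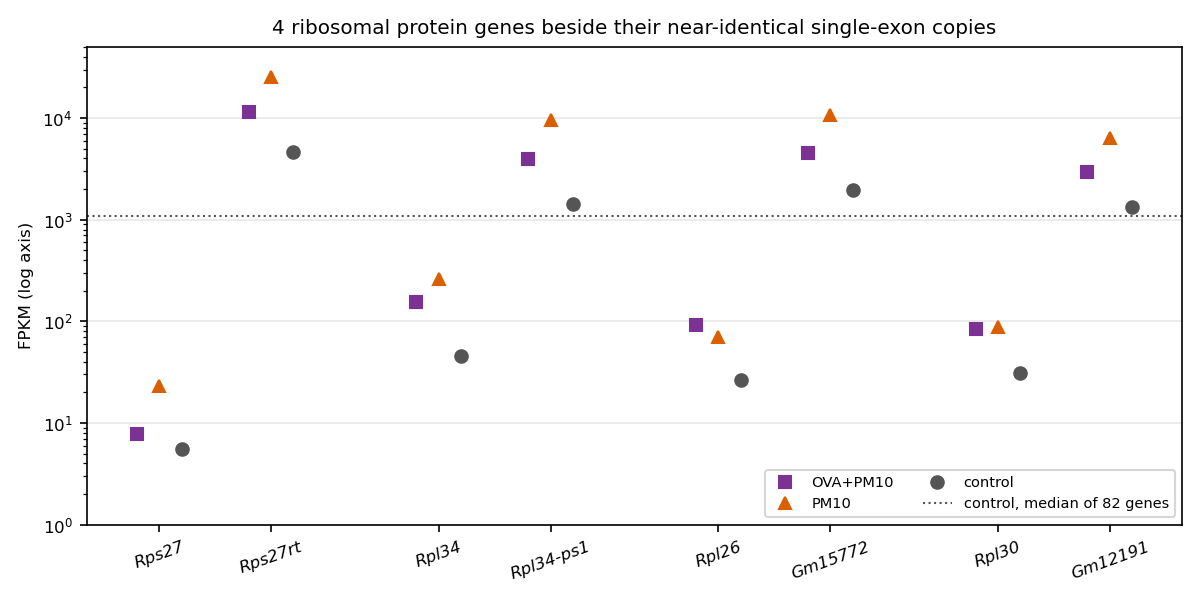
FPKM (log axis) of Rps27, Rpl34, Rpl26 and Rpl30 and of the near-identical gene of each in the OVA+PM10, PM10 and control libraries, with a dotted line at the members' median in control (1076 FPKM). In every pair and library the copy lies far above the member, from 1337 FPKM (Gm12191 in control) to 25449 FPKM (Rps27rt in PM10).

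Start sites were compared because the TOP motif is the shared regulatory sequence of these genes. RefSeq promoter windows on build GRCm38.p6 (250 bases before to 50 after the start) were found for 61 of the 82 members. A tract, searched on the gene's strand as C followed by at least 5 bases each C or T between 20 bases before and 40 after the annotated start, was present in 50 of the 61 members, or 82.0%, against 43.1% of 27025 genes with windows. The motif CCGGAAG, bound by ETS-family factors, was searched on both strands of the whole window and was present in 25 of the 61 members, or 41.0%, against 9.93% of all genes. Both searches are descriptions of letters and no tests. Among members with a window, those at the top (5) and bottom (5) of the ratio of PM10 to control are shown, each over 30 bases from the window, with the longest tract in capitals. Where no tract was found, bases 10 before to 20 after the start are shown. The stretches of Rpl37a, Rpl26, Rpl4 and Rpl3l run from base 11 to base 40 after the start. The tract of Rpl39 begins 20 bases before the start, where the search begins. Those of Rpl4 and Rpl3l end at base 40, where the search ends. These tracts may therefore run further than the capitals show. A tract found in this way need not lie at the start of the mRNA, so the capitals do not mark TOP motifs as such.
Rpl38 (chr11:114668569-114668598, plus strand): gaagcctcgttCTTTCCCCgttctcttcgg
Rpl39 (chrX:37085213-37085242, minus strand): CCCCCCCTaagctccgcctctagcgacttc
Rpl37a (chr1:72711270-72711299, plus strand): catgcgcattgcgtCCCTTCCTCTTCggac
Rps21 (chr2:180257365-180257394, plus strand): accgaggacccgCCCTCCTgcccaatagtg
Rps28 (chr17:33824543-33824572, minus strand): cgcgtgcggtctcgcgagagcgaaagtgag
Rpl26 (chr11:68901576-68901605, plus strand): gtcgcgtgtagttCTCTTTCCTTTTgcggc
Rplp0 (chr5:115559457-115559486, plus strand): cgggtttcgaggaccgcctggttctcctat
Rpl4 (chr9:64173397-64173426, plus strand): gtagagaggagcgtggCCTTCTCCTCTCCC
Rpl7l1 (chr17:46782637-46782666, minus strand): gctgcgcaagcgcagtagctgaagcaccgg
Rpl3l (chr17:24727836-24727865, plus strand): ctctggtgcctggtggggaggCCCCTTCCT

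Members with and without a tract had similar median ratios. Because the search does not require a tract at the first base of the mRNA, this split cannot decide on TOP motifs. The 50 members with a tract had a median log2 ratio of PM10 to control of 2.11 and the 11 without one a median of 2.23. For OVA+PM10 against control the medians were 1.22 with a tract and 1.29 without, and for OVA+PM10 against PM10 -0.91 and -0.81. Members with CCGGAAG had a median ratio of PM10 to control of 2.09 (25 genes) and those without one of 2.14 (36 genes). Among the sequences shown, tracts occur at both ends of the order, in Rpl38 as in Rpl4, and are not found in these windows for Rps28, Rplp0 or Rpl7l1.

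Other genes of the translation machinery were described from lists of fixed membership. The lists had been written with earlier results of these data known. Fau, made as a ubiquitin-like fusion to a ribosomal protein, and Gnb2l1, the ribosomal scaffold Rack1, were both at least 2-fold higher in OVA+PM10 than in control and in PM10 than in control. Fau had 4132 FPKM in OVA+PM10, 9521 FPKM in PM10 and 1305 FPKM in control. Gnb2l1 had 1471, 1740 and 622 FPKM. Their log2 ratios were 1.66 and 1.24 for OVA+PM10 against control and 2.87 and 1.48 for PM10 against control.

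Elongation and initiation factors lay lower than the ribosomal protein genes. For comparison, 9.95% of all genes tested were at least 2-fold higher in OVA+PM10 than in control and 13.6% in PM10 than in control. Of 11 elongation factor genes, 1 was at least 2-fold higher in OVA+PM10 than in control and 3 were so in PM10, with a median of 0.60 in both comparisons. Eef1a1, which brings aminoacyl-tRNA to the ribosome and has a TOP mRNA, had 4904 FPKM in OVA+PM10, 5772 FPKM in PM10 and 3121 FPKM in control. Eef1b2, its exchange factor, had 388, 685 and 171 FPKM, whereas Eef1a2, the form of muscle and neurons, had 1.47, 0.333 and 54.1 FPKM. Of 40 initiation factor genes, 1 was at least 2-fold higher in OVA+PM10 than in control and 15 were so in PM10, with medians of 0.30 and 0.73. Scaled to the same sum, the medians turned to -0.05 and -0.64 for elongation factors and to -0.34 and -0.47 for initiation factors, while those of the ribosomal protein genes stayed above 0 at 0.59 and 0.90.

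Genes that build ribosomes had lower ratios to control than the ribosomal protein genes. Among all genes tested, 9.95% were at least 2-fold higher in OVA+PM10 than in control, and 13.6% were higher and 13.9% lower in PM10. In OVA+PM10 against PM10, 9.0% of all genes tested were at least 2-fold lower. Of 64 ribosome biogenesis genes, 1 was at least 2-fold higher in OVA+PM10 than in control and 6 were higher and 1 lower in PM10, with medians of 0.22 and 0.29 that turned to -0.36 and -0.80 at the same sum. Npm1, the nucleolar protein nucleophosmin, had 375 FPKM in OVA+PM10, 714 FPKM in PM10 and 247 FPKM in control. Of 19 genes for subunits and factors of RNA polymerase I, which transcribes ribosomal RNA, 1 and 9 were at least 2-fold higher in OVA+PM10 and in PM10 than in control, with medians of 0.21 and 0.72 (-0.28 and -0.45 at the same sum). The small nucleolar RNA host genes, several of which carry TOP motifs, had a higher median in PM10: 8 of 11 were at least 2-fold higher than in control, with a median of 1.66 (0.49 at the same sum), while 1 of 11 was so in OVA+PM10, with a median of 0.24 (-0.29 at the same sum). Snhg8 had 32.0 FPKM in OVA+PM10, 151 FPKM in PM10 and 19.1 FPKM in control, and Gas5 had 9.23, 39.3 and 7.33 FPKM. The ribosomal RNA precursor gene Rn45s was listed at 0 in OVA+PM10 and in control and at 8570 FPKM in PM10. It belongs to a list of 9 structural RNAs, 6 of which reached 1 FPKM. All 6 were at least 2-fold higher in PM10 than in control (median 4.92, or 4.22 at the same sum), 3 of 6 were so in OVA+PM10 (median 1.05, or 0.79), and all 6 were at least 2-fold lower in OVA+PM10 than in PM10 (median -3.31, or -2.76). Rmrp, the RNA of the RNase MRP enzyme that cuts the ribosomal RNA precursor, had 41.9 FPKM in OVA+PM10, 212 FPKM in PM10 and 17.8 FPKM in control, and Rpph1, the RNA of RNase P, had 10.5, 71.7 and 2.54 FPKM. The PM10 library thus stood above the others in this class of RNAs too, and the part of this difference in the ribosomal protein values was not tested.

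Of 19 genes of the Mtor pathway and of TOP mRNA control, none was at least 2-fold different between OVA+PM10 and control, and 2 were higher and 2 lower in PM10 than in control. Over all genes tested, 9.95% were higher and 8.68% lower in OVA+PM10 than in control, and 13.6% and 13.9% in PM10. Larp1 had 13.5 FPKM in OVA+PM10, 37.5 FPKM in PM10 and 13.6 FPKM in control. Of the translation repressors that Mtor inactivates, Eif4ebp2 had 26.3 FPKM in OVA+PM10, 1.59 FPKM in PM10 and 35.1 FPKM in control, and Eif4ebp3 had 4.20, 31.3 and 4.05 FPKM. These 3 genes were named because they had the largest ratios of the list in both comparisons with the PM10 library. That PM10 stood apart in them therefore follows from the choice and does not describe the list.

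The 3 lists of other broadly expressed genes had lower medians than the ribosomal protein genes in both comparisons with control. Their median coding lengths were 576 bases for mitochondrial ribosomal proteins, 423 bases for oxidative phosphorylation and 831 bases for the proteasome, so the lists differ in a feature with which the ratios fell. Among 77 genes of the mitochondrial ribosome, 10 passed 2-fold upward in OVA+PM10 against control and 53 in PM10 against control, with medians of 0.60 and 1.20. Of 82 nuclear genes for oxidative phosphorylation, 24 were higher and 2 lower in OVA+PM10, and 59 were higher in PM10, with medians of 0.79 and 1.52. Of 37 proteasome genes, 6 and 23 were at least 2-fold higher, with medians of 0.63 and 1.08. At the same sum the medians for OVA+PM10 against control were -0.01, 0.15 and -0.01 for these lists, and for PM10 against control 0.02, 0.28 and -0.15, against 0.59 and 0.90 for the cytosolic ribosomal protein genes. Of all genes tested, 9.95% passed 2-fold upward and 8.68% downward in OVA+PM10 against control, and 13.6% upward in PM10 against control. The difference between lists was described and not tested.

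**Figure D5:**
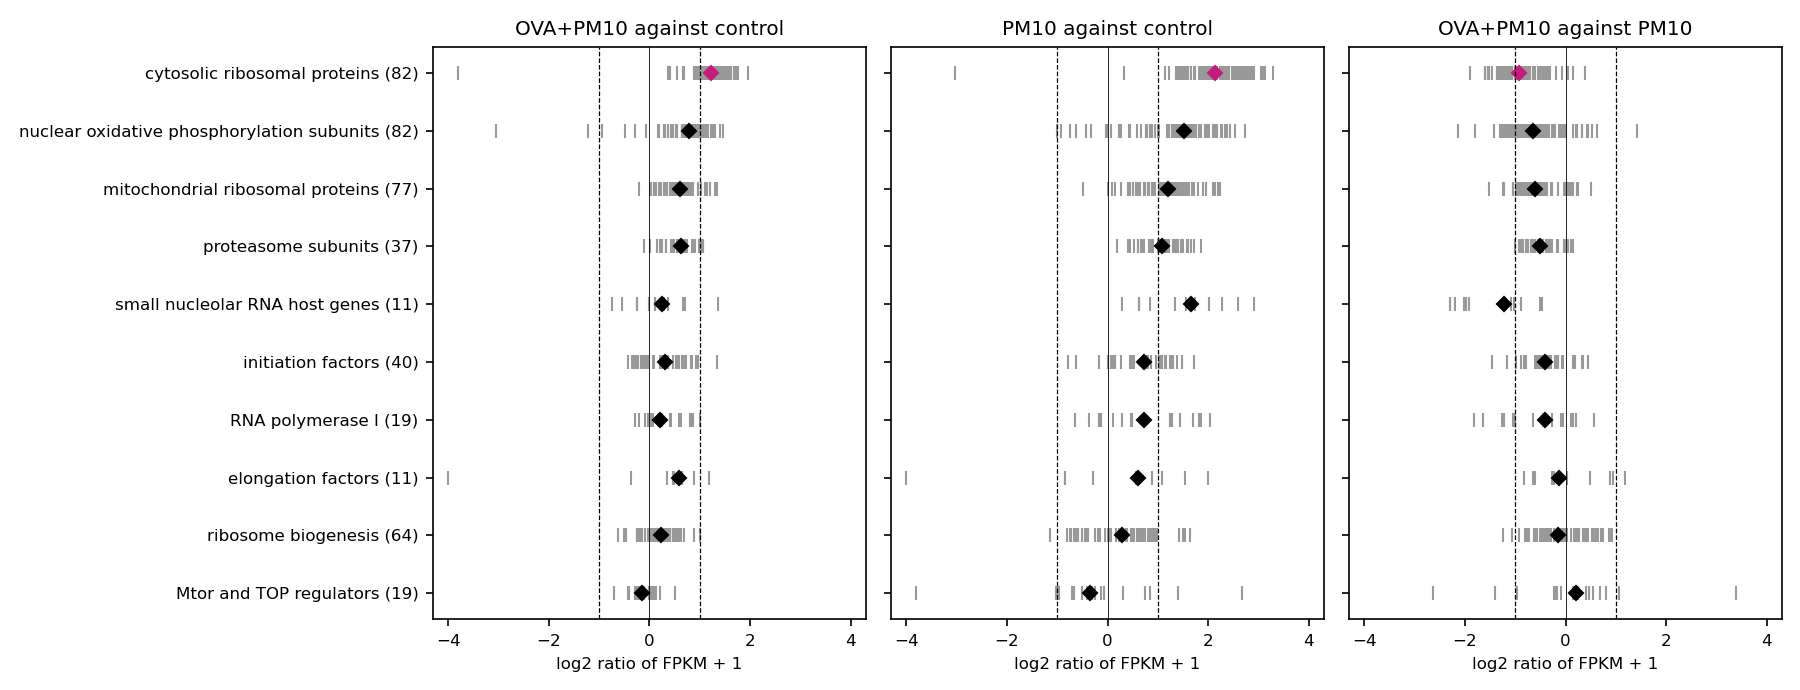
Log2 ratio of FPKM + 1 of each gene (ticks, drawn at 4 where beyond it) and the median of each list (diamonds) for OVA+PM10 against control, PM10 against control and OVA+PM10 against PM10. The ribosomal protein genes (1.23, 2.14 and -0.92) lie outside the medians of mitochondrial ribosomal proteins (0.60, 1.20 and -0.60), oxidative phosphorylation (0.79, 1.52 and -0.65) and proteasome genes (0.63, 1.08 and -0.50) in each comparison. In OVA+PM10 against PM10 the small nucleolar RNA host genes lie lower still, with a median of -1.23.

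Levels of cell type markers moved between the libraries as well. Markers of T cells summed to 136 FPKM in OVA+PM10, 170 FPKM in PM10 and 68.8 FPKM in control over 5 genes, and markers of B cells to 190, 144 and 94.1 FPKM over 4 genes. Neutrophil markers summed to 3576 FPKM in OVA+PM10, 953 FPKM in PM10 and 1016 FPKM in control, and eosinophil markers to 283, 74.7 and 70.1 FPKM. Red cell markers summed to 7650 FPKM in OVA+PM10, 23406 FPKM in PM10 and 3587 FPKM in control. Most of that sum was Hba-a1, an alpha globin gene, with 6994 FPKM in OVA+PM10, 20709 FPKM in PM10 and 3338 FPKM in control, whereas Alas2, the first enzyme of heme synthesis in red cell precursors, had 195, 169 and 113 FPKM and Hbb-bs was listed at 0, 0 and 5.51 FPKM. The hemoglobin genes Hbb-b1 and Hbb-b2 lay outside the marker list and had the order of Hba-a1. Hbb-b1 had 11592 FPKM in OVA+PM10, 26747 FPKM in PM10 and 6842 FPKM in control, and Hbb-b2 had 1767, 2711 and 662 FPKM. Macrophage markers summed to 4996 FPKM in OVA+PM10, 5417 FPKM in PM10 and 3373 FPKM in control, and lung epithelium markers to 93105, 111938 and 69333 FPKM. Genes within a list differed in the order of libraries. Of the macrophage markers, Lyz2 had 2724, 4581 and 3202 FPKM, Chil3 2106, 641 and 93.4 FPKM, and Mrc1 34.3, 18.3 and 32.2 FPKM. Of the epithelial markers, Sftpc had 24439, 56646 and 22645 FPKM and Sftpb 895, 1279 and 1383 FPKM. Of the T cell markers, Cd3d had 24.3, 46.9 and 9.04 FPKM and Cd3e 16.0, 4.76 and 11.9 FPKM. As deposited, the sums of red cell, T cell, macrophage and lung epithelium markers were all highest in PM10 and lowest in control. Those of B cells, neutrophils and eosinophils were highest in OVA+PM10. The median log2 ratio over the genes of a list is another measure than these sums. For PM10 against control it was 1.61 for red cell and 1.21 for T cell markers as deposited, and 0.37 and 0.08 at the same sum. It was 0.76 for macrophage and 0.40 for lung epithelium markers as deposited, and -0.38 and -0.81 at the same sum. Higher levels of these last markers in PM10 than in control therefore depended on the scaling. No gene of the T cell, B cell or neutrophil lists was at 0 in any library. The part of these cells in the ribosomal protein values was not tested.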

How the data were processed

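Total RNA from 3 lung homogenates was sequenced, per the labels' protocols from libraries made with a strand-preserving kit and 1.3 µg of RNA. The deposited values are FPKM (fragments, possibly reads, per kilobase and mapped depth), a unit that was inferred because no header names it, for 23183 genes in each library. Per the submitters' processing notes, TopHat and mm10 were used. The counting program, the annotation and the handling of multiply matching reads were not given in the sources used here. Log2 ratios were computed from FPKM + 1, which understates the change of low genes, and a gene counted as higher or lower at 2-fold or more if it reached 1 FPKM in either library. No test was possible with 1 library per group. Coordinates and coding lengths (1 principal transcript per gene) were taken from GENCODE M21 (GRCm38, the same assembly as mm10), where 22148 symbols matched (95.5%). Copies were found with BLAST 2.17.0, and start sites came from RefSeq (GRCm38.p6). Python 3.11.15, pandas 2.3.3, numpy 2.4.6, scipy 1.17.1 and matplotlib 3.10.9 were used, and the code was checked on simulated data.

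Depth was derived from the smallest steps of low values: 1 read in 1 kilobase was worth 0.0638 FPKM in OVA+PM10, 0.0763 FPKM in PM10 and 0.0483 FPKM in control. The authors' gene lengths are not known, so these are approximate, and no counting intervals are given. The members and all lists were chosen with earlier results of these data known. Genes given in full were the 5 highest and 5 lowest ratios of each comparison, the 5 highest levels of each library, the members nearest to the 1 FPKM limit, paralogs with their partners, stalk proteins, Rps27a, genes of Diamond-Blackfan anemia, and up to 3 genes per other list and comparison. Rps6, Eef1a1 and the 4 copies lay outside that rule and were named after their values were seen. Alternatives were other pseudocounts, limits, fold thresholds, scalings and removal of length trends. Some items covered by these rules are not reported here.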

Additional observations from a re-analysis of the deposited data

How the results depend on the processing

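Scaled to the same sum, 7 members were at least 2-fold higher in OVA+PM10 than in control (median 0.59) and 35 in PM10 than in control (median 0.90), and 3 were at least 2-fold lower in OVA+PM10 than in PM10 (median -0.34). Ratios of PM10 to control that were past 2-fold as deposited and turned were -0.11 for Rpl4 and -0.017 for Rplp0. With structural RNA, hemoglobin, immunoglobulin and muscle genes also left out, the values were 7 (median 0.57), 36 (median 0.92) and 4 (median -0.37), and -0.084 for Rpl4. With the trend over transcript length removed, 8 (median 0.63) and 40 (median 0.99) were higher than control, and in OVA+PM10 against PM10 1 was higher and 8 lower (median -0.42), with Rpl26 at -0.11 for PM10 against control. Of the alternatives added after the data were seen, the trend taken from other genes alone gave 8 (median 0.68) and 43 (median 1.07) higher than control, 1 higher and 8 lower in OVA+PM10 against PM10 (median -0.45), and -0.031 for Rpl26. The trend over coding length gave 29 higher in OVA+PM10 than in control (median 0.90), a median of 1.47 for PM10 against control, and 2 lower in OVA+PM10 than in PM10 (median -0.48).

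At 4-fold, no member was higher in OVA+PM10 than in control, 52 were higher in PM10 than in control and 0 were lower in OVA+PM10 than in PM10, and at 1.5-fold 66 were lower in OVA+PM10 than in PM10. Shares over all genes are given only at 2-fold on the deposited values. The counts at other thresholds and scalings therefore have no background beside them. Without paralogs, 0 members were lower than control in either comparison. The share of summed FPKM was 15.9%, 25.0% and 7.64% in OVA+PM10, PM10 and control when weighted by length, 28.9%, 40.1% and 17.7% with the 4 copies counted as members, and 37.9% in PM10 without structural RNA, hemoglobin, immunoglobulin and muscle genes. Apart from the scaling and the length trends, whose construction shifts all ratios, the cause of these moves was not tested. Pseudocounts of 0.25 and 5 FPKM, no limit, a limit of 5 FPKM, median-ratio scaling and summing with the copies left counts within 1.5 times. With median-ratio scaling, 67 members were at least 2-fold higher in OVA+PM10 than in control and 80 in PM10 than in control. In OVA+PM10 against PM10, 33 were then at least 2-fold lower. No paired analysis was possible because each group had 1 library. With 1 library per group, differences between mice and between preparations cannot be told apart from exposure, and the lowest values rest on few reads.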
